A study of Homo sapiens with 40 samples.

Results

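The genes described are the numbered ZNF genes of human chromosome 19, the protein-coding genes on that chromosome whose symbol is ZNF, a number and at most 1 further letter. The rule found 246 of them among 19550 protein-coding genes in the count tables, which list 60279 genes. Of the 246, 83 lie on the short arm (19p) and 163 on the long arm (19q). The rule used symbol, gene type and chromosome only, and no measured value. Single cells of T47D, a luminal human breast cancer cell line, were sequenced with 3 full-length SMART-seq protocols named G&T, Takara and NEB. All cells were at passage 10 and were sorted on EpCAM and CD49f, and whether the protocols drew on 1 culture is not stated. The cDNA was amplified with 20 PCR cycles in G&T and Takara and 22 in NEB, and SMART-Seq3 was not analysed here. Each protocol was run once, on a separate plate and in a separate sequencing run, and the 3 factors cannot be told apart. A difference in culture, if there was any, could not be told apart from them either. A protocol therefore counts as 1 sample, no difference between protocols was tested, and SDs describe the spread between its cells.

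Of 40 deposited cells, 33 passed the quality thresholds of the study, 11 in each protocol. Their library sizes, counted as reads on genes and ERCC spike-ins, ran from 672328 to 1192383 with G&T, from 827663 to 1297218 with Takara and from 720899 to 1021613 with NEB. The luminal genes KRT8, KRT18, KRT19, ESR1, PGR and GATA3 had reads in every kept cell. EPCAM, whose protein the cells were sorted on, and FOXA1 had reads in every G&T and Takara cell and in 10 of 11 NEB cells each. PTPRC, PECAM1 and KRT5, which mark leukocytes, endothelium and basal epithelium, had no reads in Takara or NEB cells. In G&T they had 2, 12 and 1 reads in all. VIM, a mesenchymal gene, was at 1.26 CPM (reads per 1000000 reads on genes, pooled over kept cells) with G&T, 2.13 CPM with Takara and 18.1 CPM with NEB, where it was 8.21 CPM without the highest cell. COL1A1, a fibroblast collagen, was at 12, 12.6 and 10.8 CPM, and at 6.65 CPM in NEB without the highest cell.

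Zinc finger proteins of the C2H2 class read DNA with a row of small modules, each folded around a zinc ion held by 2 cysteines and 2 histidines. On chromosome 19 most of them also carry a KRAB domain, which binds the corepressor TRIM28 and through it brings histone methylation and heterochromatin proteins to the bound site. Many silence transposable elements, and the genes stand in tandem clusters that grew by repeated duplication. Their transcripts are generally scarce, which makes the family a test of how well a protocol captures low-abundance regulators.

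A C2H2 pattern search in the translated canonical transcripts found between 1 and 36 fingers per gene, with a median of 12. A KRAB A box pattern was found in 199 of the 246 genes. The transcripts were mostly rich in A and T, with a median GC content of 42.3% and a range of 33.2% to 70.9%. The stretches below show what that range looks like within 1 finger. Each is 84 bases of coding sequence that hold 1 finger and the linker after it, read 5′ to 3′ from GRCh38 on the strand of the gene, with the codons of the 4 zinc-binding residues in capitals. The first pair, ZNF146 and ZNF121, belonged to the genes detected in most NEB cells. The second pair, ZNF574 and ZNF581, had no read in any NEB cell. The last pair, ZNF302 and ZNF181, are neighbours on 19q that parted in NEB.
ZNF146: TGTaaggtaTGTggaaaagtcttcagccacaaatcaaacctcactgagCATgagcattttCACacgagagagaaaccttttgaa
ZNF121: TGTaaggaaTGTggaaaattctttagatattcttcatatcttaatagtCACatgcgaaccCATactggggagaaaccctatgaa
ZNF574: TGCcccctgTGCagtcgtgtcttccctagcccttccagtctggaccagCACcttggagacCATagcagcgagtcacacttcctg
ZNF581: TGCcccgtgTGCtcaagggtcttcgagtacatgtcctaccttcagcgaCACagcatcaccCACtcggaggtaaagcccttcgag
ZNF302: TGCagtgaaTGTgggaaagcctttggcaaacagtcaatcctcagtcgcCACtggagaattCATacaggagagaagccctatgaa
ZNF181: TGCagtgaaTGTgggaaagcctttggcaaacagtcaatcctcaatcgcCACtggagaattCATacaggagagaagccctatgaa

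The ZNF146 stretch lies at chr19:36236492-36236575 on the plus strand, in the only coding exon of the canonical transcript, and has 40.5% GC. The ZNF121 stretch lies at chr19:9566594-9566677 on the minus strand, in the second of 2 coding exons, and has 35.7% GC. Both of the GC-rich stretches lie on the plus strand in the only coding exon of their gene. That of ZNF574 lies at chr19:42079618-42079701 with 59.5% GC, and that of ZNF581 at chr19:55644836-55644919 with 57.1% GC. The stretches of ZNF302 (chr19:34684644-34684727) and ZNF181 (chr19:34741096-34741179) lie on the plus strand in the last of 4 coding exons. They differ at 1 of the 84 positions, G44A, counted from the first base with the ZNF302 base first. Between ZNF146 and ZNF574, by contrast, 50 positions differ.

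A ZNF gene of chromosome 19 was more often detected than an average protein-coding gene in Takara and G&T cells, and less often in NEB cells. At least 1 read was taken as detection. In G&T, 129 ± 16.2 members (SD, n = 11 cells) were detected per cell, with a lowest value of 95, a median of 127 and a highest of 155. In Takara the mean was 145 ± 12.4, with a lowest value of 129, a median of 147 and a highest of 168. In NEB it was 41.0 ± 13.0, with a lowest value of 28, a median of 37 and a highest of 75. G&T and Takara cells overlapped, and every NEB cell lay below every cell of the other protocols. The NEB cell with 75 members, in well D1, stood above the next at 54 and also had the largest NEB library and the most genes. Without it the NEB mean was 37.6.

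These counts correspond to 52.5% of the members with G&T, 59.1% with Takara and 16.7% with NEB. Over all protein-coding genes the mean shares were 48.9%, 49.8% and 23.9%. The share of members lay above that of protein-coding genes in 10 of 11 G&T cells and in 11 of 11 Takara cells. It lay below it in 10 of 11 NEB cells, by 7.22 ± 3.31 percentage points on average. ZNF genes of the same name pattern on other chromosomes, of which there were 262, had mean shares of 56.0%, 59.4% and 19.9%. The other 1208 protein-coding genes of chromosome 19 had shares of 43.5%, 46.3% and 15.1%, so members were detected more often than the rest of the chromosome in 11 of 11 Takara cells, 10 of 11 G&T cells and 7 of 11 NEB cells. These other genes of chromosome 19 have a median GC content of 59.99% and a median exon length of 3198 bases, against 42.3% and 5536 bases for members. Thinned to the smallest kept library, the mean numbers of members were 125, 140 and 39.97.

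**Figure D1:**
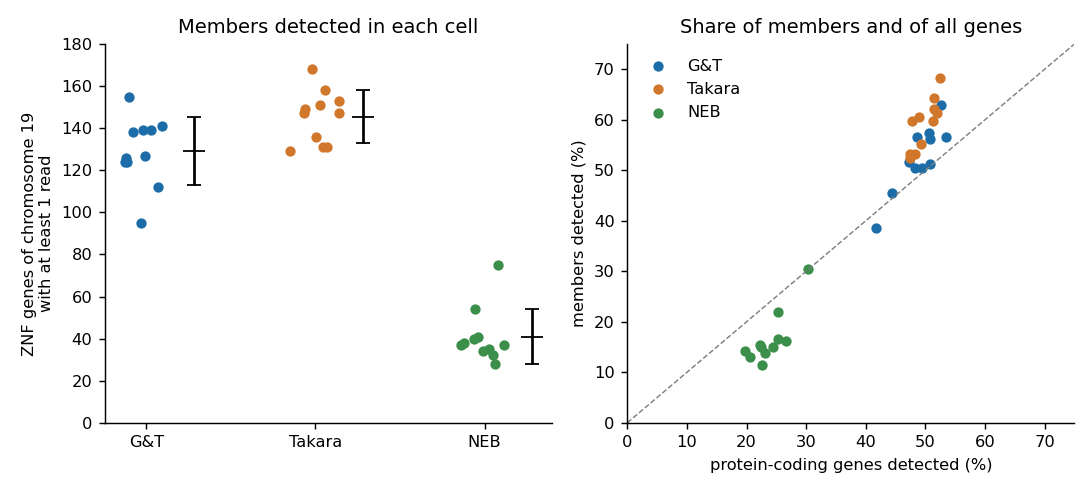
The left plot gives the number of ZNF genes of chromosome 19 with at least 1 read in each kept cell (points) with the mean and SD over the 11 cells of each protocol (bars). The right plot sets the percentage of these 246 genes detected in a cell against the percentage of all 19550 protein-coding genes, and the dashed line marks equal shares. All 11 Takara cells lie above the line and 10 of 11 NEB cells below it.

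Within G&T, the number of members moved with the number of genes detected and with the share of reads outside annotated genes. Across the 11 cells the correlation of members detected with all genes detected was 0.91 (Pearson) and 0.86 (Spearman), and it was 0.91 and 0.83 without the 2 cells farthest from the median. With the percentage of reads outside genes, which ran from 5.46% to 23.2%, it was 0.84 and 0.86, and 0.86 and 0.85 without the 2 farthest cells. These are descriptions of cells of 1 run, and whether the reads outside genes had a part in the numbers was not tested. The 7 G&T cells with at most 15% of reads outside genes averaged 121 members. In Takara that percentage reached 7.27%, and its correlation with members was -0.06 (Pearson) and -0.24 (Spearman).

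Nearly every member was seen somewhere in G&T and Takara, but few were seen everywhere. In at least 1 kept cell, G&T had a read for 231 members (93.9%), Takara for 226 (91.9%) and NEB for 160 (65.0%). Over all protein-coding genes these shares were 71.7%, 65.3% and 49.5%. G&T had reads in all 11 cells for 13 members (5.28%), Takara for 30 (12.2%) and NEB for 0. Here the background lay higher, at 27.5%, 32.6% and 6.78% of protein-coding genes. ZNF genes of other chromosomes fell between, with 16.8%, 19.5% and 2.29% in all 11 cells. With reads required in at least 2 cells, 96 members (39.0%) were left in NEB, against 214 (87.0%) with either other protocol. Under that rule 40.3% of protein-coding genes were left with NEB, 61.7% with G&T and 59.4% with Takara, so the higher NEB share of members held for any read and not for reads in 2 cells.

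**Figure D2:**
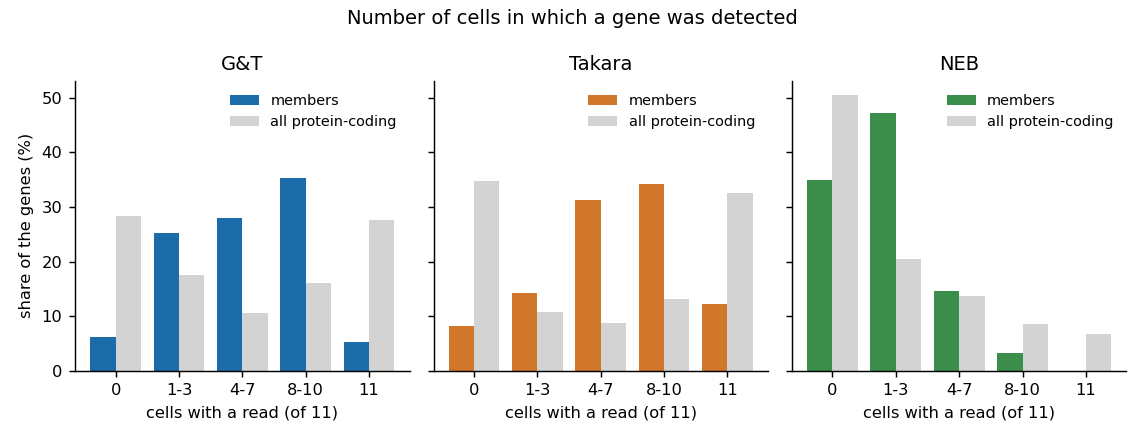
Bars give the percentage of genes with a read in 0, 1 to 3, 4 to 7, 8 to 10 or all 11 kept cells, for the 246 ZNF genes of chromosome 19 (members, coloured) and for all protein-coding genes (grey), in 1 panel per protocol. Protein-coding genes pile up at 0 and, in G&T and Takara, at 11 cells, whereas members fill the middle, and in NEB 47.2% of members had reads in 1 to 3 cells.

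Of the 246 members, 156 (63.4%) had reads in all 3 protocols and 66 (26.8%) in G&T and Takara without NEB, beside 48.1% and 14.0% of protein-coding genes. G&T alone detected 7 (2.85%, beside 9.01%), Takara alone 4 (1.63%, beside 2.95%), and G&T and NEB together 2. NEB alone detected ZNF208, with 1 read, and ZNF709, with 13 reads. These genes are named because they are few, after their values were seen. A further 9 members (3.66%, beside 24.5% of protein-coding genes) had no read in any kept cell. They were ZNF177, ZNF560 and ZNF723 on 19p and ZNF132, ZNF229, ZNF471, ZNF541, ZNF677 and ZNF835 on 19q. ZNF835 completes the list and was likewise named after its values were seen. A count of 0 over the pooled cells allows up to 0.316 CPM with G&T, 0.256 CPM with Takara and 0.376 CPM with NEB, for counting error only. For ZNF177 the exons of other genes cover 90.6% of its exon bases, and the counting of the authors drops reads that overlap more than 1 gene. ZNF560, ZNF723, ZNF132 and ZNF471 have no such overlap.

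The 6 members with reads in all 22 G&T and Takara cells were ZNF121, ZNF562, ZNF226, ZNF480, ZNF552 and ZNF544. No member had reads in all 33 cells. In NEB, 8 members reached at least 8 cells, namely ZNF557, ZNF121, ZNF626, ZNF146, ZNF766, ZNF468, ZNF814 and ZNF587. They are 3.25% of the members, all with reads in 8 to 10 cells. Of protein-coding genes, 8.56% had reads in 8 to 10 NEB cells and a further 6.78% in all 11. The share of protein-coding genes with reads in all 22 G&T and Takara cells was not counted. Both sets were picked after the values were seen and describe the steadiest end of the list.

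The members took overlapping shares of the reads in the 3 protocols, spread over different numbers of genes. Summed over members, G&T cells had 2056 ± 450 CPM (SD, n = 11), Takara cells 2284 ± 220 CPM and NEB cells 2751 ± 736 CPM, and the cell ranges of the 3 protocols overlapped. A detected member had a median of 8 reads in G&T cells, 12 in Takara cells and 28.4 in NEB cells, as means over cells. The 10 members with the most reads held 32.1 ± 7.12% of the member reads of a G&T cell, 25.2 ± 3.795% of a Takara cell and 65.8 ± 13.4% of an NEB cell. NEB cells thus had few members with many reads each, and Takara cells many members with moderate numbers. Levels pooled over cells therefore leaned on single cells in NEB. Without the cell of highest CPM, the pooled level fell by more than 1.5 times for 99 of the 119 members with at least 20 reads in NEB, for 56 of 176 in G&T and for 37 of 189 in Takara. Levels named in the text that moved this far are given with the value without that cell, a check added after the data were seen.

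Over all members, mean detection was within 1 percentage point between the arms in Takara and NEB, and it was lower on 19q in 10 of 11 G&T cells. In Takara, 59.4 ± 7.41% of the 19p members and 59.0 ± 4.73% of the 19q members were detected per cell (SD, n = 11 cells). The difference, 19q minus 19p, was -0.36 ± 5.88 percentage points, and it was below 0 in 5 cells and above 0 in 6. NEB cells had 16.8 ± 7.24% on 19p and 16.6 ± 5.22% on 19q, with a difference of -0.14 ± 5.84, below 0 in 4 cells and above 0 in 7. In G&T the shares were 56.0 ± 9.12% on 19p and 50.7 ± 5.76% on 19q. The G&T difference was -5.27 ± 5.58 percentage points with a median of -2.11, so its size was within the spread between cells. It was -3.26 in the 7 cells with at most 15% of reads outside genes.

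The arm comparison depended on genes that share exons with other genes. At least 10% of the exon bases were covered by another gene in 23 members on 19p and 42 on 19q. The 23 on 19p were detected in 41.1% of cases in both G&T and Takara, and the 42 on 19q in 48.7% and 57.4%. Among members overlapped by less than 10%, the 60 on 19p had shares of 61.7%, 66.4% and 18.5% in G&T, Takara and NEB, and the 121 on 19q had 51.4%, 59.6% and 16.9%. The difference, 19q minus 19p, then became -10.3 percentage points with G&T, -6.78 with Takara and -1.58 with NEB. These 19p members have a median GC content of 39.8% and the 19q members 42.4%, with median exon lengths of 5667.5 and 5500 bases. The more overlapped members have 42.8% and 44.1% GC and 4096 and 5261.5 bases on 19p and 19q. Whether overlap, length or GC content had a part in the arm difference was not tested.

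Members stood in 9 clusters, defined as at least 5 members on 1 arm with gaps of at most 1 Mb, and 11 members were dispersed. The clusters are named here by their first and last member. On 19p, the cluster ZNF101 to ZNF254 (37 members, chr19:19668796-24129968) had the highest mean detection in G&T of all 9, at 63.9 ± 13.0% (SD, n = 11 cells). It is the pericentromeric cluster, with the lowest median GC content of the 9, 36.8%. In Takara and NEB its means were 60.4 ± 11.2% and 17.9 ± 10.1%. The cluster ZNF557 to ZNF846 (15 members, chr19:7069703-9793180) had 52.7%, 64.8% and 20.6% in G&T, Takara and NEB. ZNF653 to ZNF791 (25 members, chr19:11483427-12640098) had 47.6%, 52.0% and 14.5%, the lowest Takara mean of the 9. The 5 members of ZNF554 to ZNF77 (chr19:2819868-2944971) had 50.9 ± 22.6%, 78.2 ± 18.9% and 9.09 ± 13.8%.

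On 19q, ZNF565 to ZNF573 (26 members, chr19:36182276-37817300) had the highest NEB mean, 26.2 ± 9.23%, with 63.3 ± 10.8% in G&T and 68.5 ± 12.6% in Takara. All 26 of its members were seen in Takara cells and 23 in NEB cells. ZNF175 to ZNF331 (39 members, chr19:51571283-53580269) had 57.6%, 63.2% and 22.8%. The lowest G&T mean, 39.0 ± 9.91%, belonged to ZNF575 to ZNF296 (24 members, chr19:43525497-45076478), where Takara had 54.9 ± 5.53% and NEB 11.4 ± 6.48%. The largest cluster, ZNF628 to ZNF446 (59 members, chr19:55476617-58481230), lies towards the end of the chromosome and had 47.6%, 55.01% and 12.3%. The 5 members of ZNF302 to ZNF792 (chr19:34677639-34964229) had 45.5 ± 22.1%, 78.2 ± 20.9% and 10.9 ± 10.4%, and a single one of them, ZNF302, had reads in NEB. Dispersed members had 40.5%, 40.5% and 8.26%. In each protocol the gaps between neighbouring ranks were smaller than the SD over cells, and the order is a description of 1 run each.

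The largest cluster was not uniform. With gaps of at most 0.5 Mb it parted into ZNF628 to ZNF835 and ZNF264 to ZNF446. The first, with 16 members and a median GC content of 63.3%, had 38.6% with G&T, 47.2% with Takara and 3.41 ± 5.13% with NEB. The second, with 43 members and a median GC content of 45.3%, had 51.0%, 57.9% and 15.6 ± 7.06%.

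**Figure D3:**
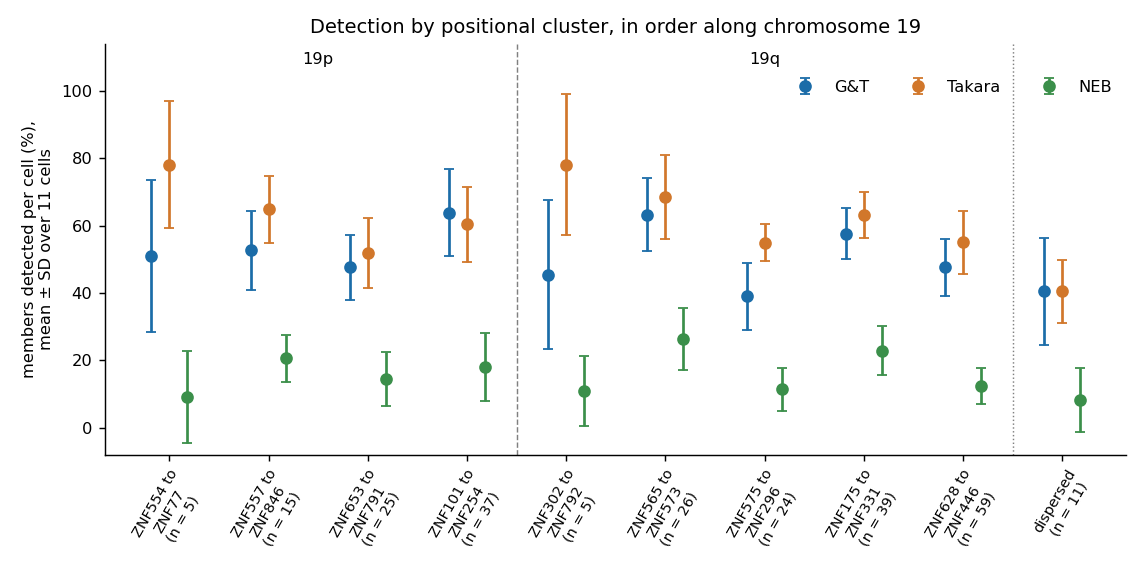
Points give the mean percentage of a cluster's members detected per cell and bars the SD over 11 cells, for each of 9 clusters ordered along chromosome 19 and for the 11 dispersed members at the right. The number of members is under each name and the dashed line parts 19p from 19q. NEB lies lowest in every cluster, and its mean runs from 9.09% in ZNF554 to ZNF77 to 26.2% in ZNF565 to ZNF573.

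ZNF146, also called OZF, consists almost wholly of fingers and lacks a KRAB pattern. It had the highest NEB level per length of all members, 68.3 RPKM (CPM per kilobase of exon), against 17.8 in Takara and 10.4 in G&T. Its level in single G&T cells ran from 0 to 77.8 CPM with a median of 48.6. Takara cells ran from 38.3 to 153 CPM with a median of 56.5. NEB cells ran from 0 to 544 CPM with a median of 334. The gene had reads in 10, 11 and 10 of 11 cells in G&T, Takara and NEB, and its pooled log2 ratio (1 CPM added) was -2.69 with G&T and -1.92 with Takara, each over NEB.

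ZNF121, on 19p, likewise lacks the KRAB pattern and was the most widely detected member of its cluster. It had reads in 11 G&T, 11 Takara and 10 NEB cells. G&T cells held 7.26 to 156 CPM with a median of 59.6, Takara cells 9.45 to 69.6 with a median of 33.9, and NEB cells 0 to 253 with a median of 56.0. The ranges of all 3 protocols overlapped. Its cluster neighbour ZNF562 had pooled levels of 38.3, 31.1 and 86.9 CPM in G&T, Takara and NEB, and 50.7% of its exon bases are covered by other genes. Of its 693 NEB reads, 388 came from the cell in well B1, and without it the NEB level was 41.8 CPM.

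In the cluster ZNF175 to ZNF331, ZNF766 and ZNF468 had pooled NEB levels of 151 and 120 CPM. ZNF766 was at 29.4 CPM in G&T and 36.9 CPM in Takara. For ZNF468 the levels were 16 and 60.1 CPM. ZNF468 cells in NEB ran from 0 to 602 CPM with a median of 58.1, and the pooled level was 79.1 CPM without the highest, G2. ZNF552, near the end of 19q, had the highest Takara level per length, 21.1 RPKM. It had reads in 11 G&T, 11 Takara and 5 NEB cells at 32.0, 63.0 and 22.2 CPM pooled, and at 7.65 CPM in NEB without cell C1.

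The neighbours ZNF302 and ZNF181 were alike in G&T and Takara and parted in NEB. ZNF302 was at 8.84 CPM in G&T (9 of 11 cells), 13.2 CPM in Takara (10 cells) and 31.6 CPM in NEB (6 cells), where its cells ran from 0 to 146 CPM. ZNF181 was at 11.2 CPM in G&T (8 cells) and 9.56 CPM in Takara (9 cells), and had no read in 11 NEB cells. Against the limit for 0 reads in NEB, which covers counting error only, ZNF181 was 29.7-fold higher in G&T and 25.4-fold higher in Takara. The GC contents of the 2 transcripts are 41.3% and 40.004%. Of the 100-base windows of their transcripts, 1.5% in ZNF302 and 3.0% in ZNF181 also occur in transcripts of genes elsewhere. A read pair lying wholly within such a stretch could be dropped as multimapping, and whether any was lost was not tested.

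**Figure D4:**
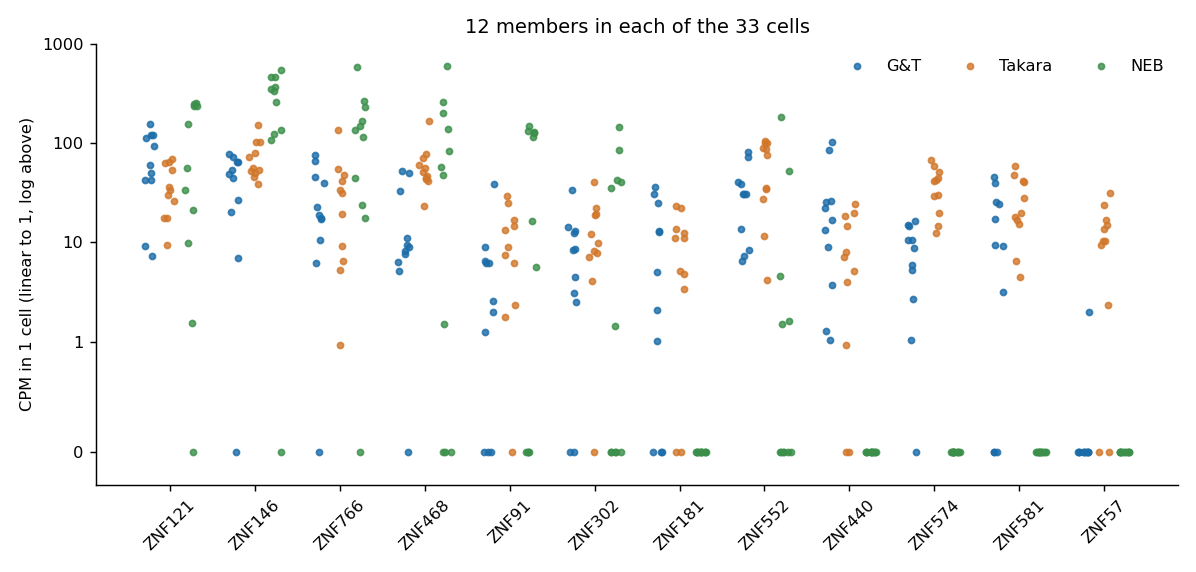
Each point is the level of 1 gene in 1 cell in CPM, on an axis that is linear up to 1 and logarithmic above, for 12 ZNF genes of chromosome 19 in 11 cells of each protocol. In NEB ZNF146 reached 544 CPM, while ZNF181, ZNF440, ZNF574, ZNF581 and ZNF57 lay at 0 in all 11 cells.

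Several members have well-studied roles. ZNF91 and ZNF93 repress retrotransposons, of the SVA and LINE-1 families respectively. ZNF91 had reads in 8 G&T, 10 Takara and 7 NEB cells at 6.21, 11.5 and 59.7 CPM, and was at 3.43 CPM in G&T without cell E1. ZNF93 had them in 8, 11 and 1 cells at 9.79, 21.1 and 6.90 CPM. The 2 genes lie in the same cluster, and the NEB reads of ZNF93 all came from 1 cell.

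ZNF274, which recruits the histone methyltransferase SETDB1 to the 3′ ends of ZNF genes themselves, was at 34.9 CPM in G&T (9 cells), 49.2 in Takara (11 cells) and 8.78 in NEB (5 cells, 3.83 CPM without A1). ZNF350, a partner of BRCA1 also called ZBRK1, was at 1.79, 9.64 and 48.8 CPM, in 4, 8 and 3 cells, and at 0.960 CPM in G&T without D2. ZNF331, an imprinted gene, went the other way and was at 15.4, 5.55 and 0.376 CPM in 8, 6 and 1 cells. ZNF473, which takes part in histone mRNA processing, was at 15.1, 17.4 and 2.26 CPM in 8, 9 and 1 cells. ZNF675, an inhibitor of TRAF6 signalling, was at 13.3, 18.6 and 17.4 CPM in 10, 10 and 4 cells. ZNF382 was at 4.00, 2.13 and 9.66 CPM in 4, 6 and 1 cells, and at 0.944 CPM in Takara without D1. ZNF536, a neuronal repressor, had 1 read in 1 G&T cell and none elsewhere. Of these 9 members, 8 had reads in more Takara cells than NEB cells, and ZNF536 had none in either. Genes at large were also seen less in NEB, with 49.8% of protein-coding genes detected per Takara cell and 23.9% per NEB cell.

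G&T and Takara ranked members less alike than genes at large. Over the 246 members the pooled log2 levels (1 CPM added) had a Pearson correlation of 0.71 between G&T and Takara, 0.47 between G&T and NEB and 0.53 between Takara and NEB. Over all protein-coding genes the values were 0.95, 0.84 and 0.81. Genes are not independent replicates, and members span a narrower range of levels than all genes. At a pooled Takara level of 10 to 20 CPM, the 54 members were detected in 65.8% of cases in G&T and 25.4% in NEB, against 81.7% and 31.9% for 1715 protein-coding genes at that level. The Takara shares in that class were 83.3% and 90.0%. Genes were matched on the Takara level only, and the median G&T level in that class was 7.47 CPM for members and 15.9 CPM for protein-coding genes. Of the 5 classes of Takara level compared, this one had the widest G&T gap between members and protein-coding genes. From 0.5 to 2 CPM the G&T shares were 34.8% for members and 30.03% for protein-coding genes, and from 2 to 5 CPM they were 51.2% and 52.5%. Above that, members lay lower in G&T, with 56.7% against 69.2% from 5 to 10 CPM and 84% against 92.1% from 20 to 50 CPM. The median G&T level of members was higher than that of protein-coding genes from 0.5 to 2 CPM, at 2.21 against 1.37 CPM. It was lower from 5 to 10 CPM, at 5.68 against 9.68 CPM, and from 20 to 50 CPM, at 18.4 against 29.3 CPM. In NEB members had the lower share in all 5 classes, from 4.55% against 6.78% in the lowest to 30.9% against 44.7% in the highest.

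Pooled ratios of at least 2-fold were counted between protocols, with 1 CPM added and without a test. Between G&T and Takara, 33 of 235 members with a read were higher in G&T (14.0%) and 48 higher in Takara (20.4%), beside 17.6% and 15.3% of protein-coding genes. Between G&T and NEB, 89 of 233 members were higher in G&T (38.2%) and 51 in NEB (21.9%), beside 39.7% and 15.4%. Between Takara and NEB, 100 of 230 were higher in Takara (43.5%) and 42 in NEB (18.3%), beside 40.1% and 18.8%. The shares of members lay near these backgrounds, with gaps of a few percentage points either way. Members more than 2-fold higher in NEB had GC contents up to 45.7% against G&T and up to 47.5% against Takara. Of the 33 members of 50% GC or more, 22 were higher in Takara than in NEB and 19 higher in G&T than in NEB. The like shares of GC-rich protein-coding genes were not counted.

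The members with the largest ratios came from both arms. Between G&T and Takara, ZNF414 (8.42 against 0.341 CPM) and ZNF490 (12.7 against 1.11 CPM) were highest for G&T, with pooled ratios of 24.7 (95% interval 9.27 to 92.7) and 11.5 (6.47 to 22.2). Of the 80 ZNF414 reads in G&T, which came from 6 cells, 60 were from the cell in well H1. Without it the G&T level was 2.34 CPM and the ratio 6.86 (95% interval 2.30 to 27.6). For ZNF490, the Takara level was 0.646 CPM without A1. ZNF57 and ZNF613 were highest for Takara, at 12.3 and 11.8 CPM against 0.211 CPM each in G&T, where 2 reads in 1 cell were found for either gene. Their pooled ratios, G&T over Takara, were 0.0171 (95% interval 0.00205 to 0.0630) and 0.0179 (0.00214 to 0.0658). The genes of this paragraph were picked by these same ratios, so intervals away from 1 follow from the choice. The intervals cover counting error only, not the spread between cells. Of the exon bases of ZNF490 and ZNF57, 51.1% and 75.2% are covered by other genes, and ZNF414 and ZNF613 have no such overlap.

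Against NEB, ZNF844 and ZNF440, both from ZNF653 to ZNF791 on 19p, had reads in all 11 G&T cells and in no NEB cell. Their pooled G&T levels were 29.2 and 27.3 CPM, 77.5-fold and 72.5-fold above the limit in NEB, which covers counting error only. Without the highest G&T cell of each gene, these folds were 58.2 and 57.4. In Takara the genes were at 4.95 and 9.22 CPM in 6 and 9 cells, and ZNF844 was at 2.22 CPM there without A1. ZNF574 and ZNF581 had reads in all 11 Takara cells at 39.0 and 28.9 CPM, 104-fold and 76.7-fold above the NEB limit. In G&T they had reads in 10 and 8 cells at 8 and 15.1 CPM. Takara cells ran from 12.4 to 67.7 CPM for ZNF574 and from 4.52 to 59.3 CPM for ZNF581, so that no Takara cell reached down to the NEB value of 0.

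In the other direction, ZNF433 was at 50.3 CPM in NEB (7 cells), 13.7 in Takara (8 cells) and 1.26 in G&T (3 cells, 0.706 CPM without B1). ZNF284 was at 35.4 CPM in NEB (6 cells), 2.05 in Takara (5 cells, 1.02 CPM without E2) and 1.37 in G&T (3 cells, 0.339 CPM without B2). ZNF626 was at 84.6 CPM for NEB, 5.04 for Takara and 7.68 for G&T, with reads in 8 cells of each protocol. Without cell B1 the NEB level was 54.7 CPM. Its single cells reached 407 CPM for NEB, 12.1 for Takara and 20.1 for G&T. ZNF626 thus differed in level, log2 ratio -3.83 for Takara over NEB, without any difference in the number of cells.

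In NEB, members with GC-rich transcripts were seldom detected. Of 33 members with transcripts of 50% GC or more, 3.86 ± 3.06% were detected per NEB cell (SD, n = 11 cells), against 18.7 ± 6.10% of the 213 others. In Takara the shares were 56.7 ± 8.14% and 59.5 ± 5.45%, and in G&T 42.7 ± 10.6% and 54.0 ± 7.08%. The NEB cell ranges of the GC-rich and other members, up to 9.09% and from 11.7%, did not overlap. The GC-rich members were also shorter, with a median exon length of 3763 bases against 5916, and the part of length was not tested. In NEB the share fell over 5 classes of GC content from 24.6% under 40% GC to 2.69% at 55% GC or more. For all protein-coding genes it fell in the same classes from 39.4% to 11.6%, so the direction was not particular to members. Members under 40% GC held 53.3% of the member reads for NEB, 32.9% for Takara and 35.8% for G&T. ZNF574, ZNF581 and ZNF428, with 62.3%, 61.8% and 60.2% GC, had no NEB read in any cell.

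Of the 159 members with at least 20 reads in each of G&T and Takara, 31 had none in NEB (19.5%), beside 13.2% of 10030 protein-coding genes with as many reads. The median GC content of the 31 members was 44.04%, and that of the 1324 protein-coding genes so found 57.5%. Of the 31, 13 lie on 19p and 18 on 19q. The set includes ZNF440 at 42.1% GC and ZNF844 at 43.7%, and ZNF181.

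**Figure D5:**
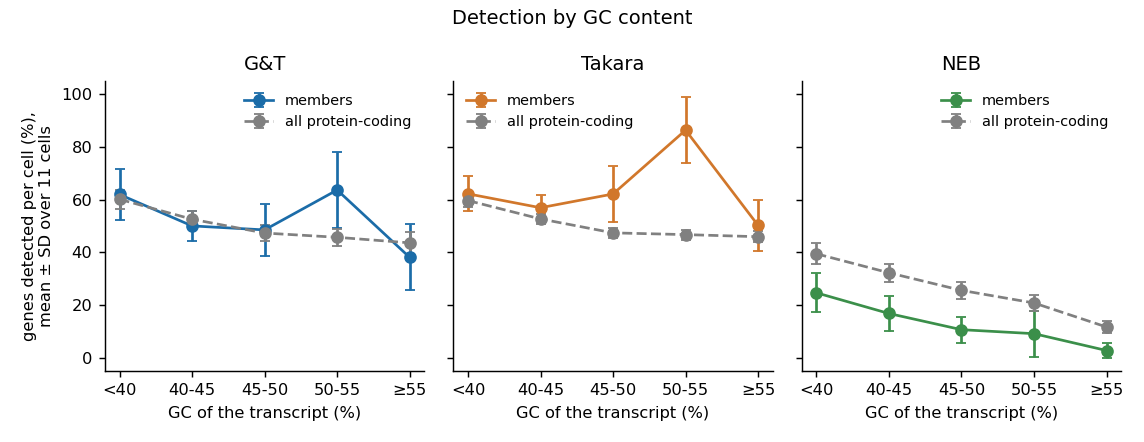
Points give the mean percentage of genes detected per cell and bars the SD over 11 cells, in 5 classes of transcript GC content, for the 246 ZNF genes of chromosome 19 (members, coloured) and all protein-coding genes (grey, dashed), in 1 panel per protocol. NEB falls from 24.6% to 2.69% for members. The class of 50% to 55% holds 6 members only, and its Takara mean of 86.4% rests on them.

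The KRAB pattern went with GC content. Members with it were detected in 54.0%, 59.6% and 18.1% of cases per cell in G&T, Takara and NEB, and the 47 without it in 46.2%, 57.1% and 10.6%. Under 50% GC, the 190 members with the pattern had 53.9%, 59.1% and 18.5%. The 23 without it had 54.5%, 62.8% and 19.8%, which lay within 1 SD of the former in each protocol. Across members, the number of cells with a read had a Spearman correlation with exon length of 0.30 with G&T, 0.17 with Takara and 0.36 with NEB (n = 246). With the number of fingers the values were -0.01, -0.02 and 0.12. Longer transcripts collect more reads at the same number of molecules, and members share the libraries of their cells.

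Duplicated genes can lose reads that align to more than 1 place. In 58 members at least 1 window of 100 bases also occurs in a transcript of a gene that does not overlap them. They were detected in 56.9%, 62.5% and 17.6% of cases, and the 188 others in 51.1%, 58.1% and 16.4%. The 58 were also longer, with a median exon length of 6299 bases against 5032, so the comparison does not show whether reads were lost. ZNF98 had the largest share of such windows, 34.7%, and it and ZNF417 are named after the values were seen. ZNF417 shares 21.7% of its windows, with ZNF587 among others, and ZNF587 shares 14.7%. ZNF417 had 5, 4 and 10 reads in G&T, Takara and NEB, and ZNF587 had 95, 77 and 212. The levels of these genes are therefore uncertain. Exon overlap went with lower detection, at 40.1%, 43.4% and 11.98% for the 22 members with at least 30% of exon bases covered. The 181 members overlapped by less than 10% had 54.8%, 61.8% and 17.4%. Median exon length was 3758 bases in the 22 and 5579 bases in the 181, and the part of length was not tested.

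The corepressor partners of KRAB zinc finger proteins were detected far more steadily than the members. TRIM28, the scaffold that KRAB domains bind, lies on 19q itself and was at 67.9 CPM in G&T (11 cells), 53.7 in Takara (11 cells) and 25.6 in NEB (6 cells). Without the highest cell it was at 42.5 CPM in G&T and 13.1 CPM in NEB. Of 12 partners, 10 had reads in all 11 G&T cells, 10 in all Takara cells and 3 in all NEB cells. Those 3 were CBX3, CBX5 and CHD4, of the heterochromatin protein 1 family and the NuRD complex. CBX3 was at 415, 340 and 846 CPM in G&T, Takara and NEB. SETDB1, the methyltransferase recruited by TRIM28, was at 27.1, 11.4 and 2.13 CPM in 11, 9 and 3 cells. ATF7IP, its stabilising partner, was at 52.3, 26.1 and 46.4 CPM in 11, 11 and 4 cells. DNMT1, the maintenance DNA methyltransferase, was at 150, 96.3 and 20.1 CPM in 11, 11 and 8 cells. Without the highest cell, the NEB levels were 0.958 CPM for SETDB1, 16.3 CPM for ATF7IP and 13.0 CPM for DNMT1. Per length, the median partner was at 8.42 RPKM with G&T, 9.45 with Takara and 5.87 with NEB, and the median member at 0.954, 1.05 and 0.332 RPKM.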

How the data were processed

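The authors trimmed the reads with Trim Galore 0.4.0, aligned them to GRCh38 with STAR 2.5.2b and deposited STAR's raw read counts per gene as 1 table per protocol, with no normalization and no molecular identifiers. Reads that align to several places or overlap more than 1 gene are not counted. The annotation release and strand setting are not given in the sources used here, so reads of a gene and its antisense neighbour cannot be told apart. The 4 rows of unassigned reads stayed out of library sizes and tests.

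Cells were kept with at least 1000 genes, a library of at least 600000 reads, at most 30% mitochondrial and at most 25% ERCC reads. No cell duplicated another, and no doublet caller was run on these sorted cells. Gene types, coordinates and exon lengths came from GENCODE 44 on GRCh38, and all 246 members matched by identifier. The arms were parted at the longest stretch of chromosome 19 without a protein-coding gene. Levels are pooled reads in CPM with exact 95% Poisson intervals, which cover counting error only since reads are not independent molecules. Log2 ratios have 1 CPM added, and 3 reads stood as the limit where none was found. Thinning was exact rarefaction to 672328 reads. Fingers and KRAB A boxes were found by patterns in the translated canonical coding sequence, not in RefSeq proteins as planned, and can be missed where divergent. Classes of GC content were added after seeing the data.

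Members and lists were chosen with earlier results of these data known. The named genes are, per cluster, the 2 members with reads in the most cells, then per pair of protocols and direction the 2 of largest pooled ratio with at least 20 reads and 6 cells, the longest members without reads (up to 5 per arm), 9 members with known roles and 12 corepressor partners. Other ZNF genes are named as the ends of clusters, or where the text says that they were named after their values were seen. No test was made, since each protocol is 1 sample. Alternatives covered the cells kept, the reads that count as detection, depth, exon overlap, cluster gaps, denominators, pseudocounts, pooling and TMM scaling (edgeR 4.0.16, R 4.3.3). The steps were tested on simulated data. Scripts ran in Python 3.11.15 (scipy 1.17.1, pandas 2.3.3, numpy 2.4.6, figures with matplotlib 3.10.9).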

Additional observations from a re-analysis of the deposited data

Results flagged for a closer look

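Reads on members were also present in cells that failed the quality thresholds and entered no comparison. In G&T, the cell in well C2, which had over 30% mitochondrial reads, had reads for 39 members, and the cell in F1, just under the library threshold, for 138 members, within the range of the kept cells. In Takara, 30 members were seen in C2 and 2 in F1, both with over 25% ERCC reads, and ZNF284 held 97.9% of the 48 member reads of F1. In NEB, 15 members were seen in B2, where ZNF43, named after its value was seen, held 52.6% of the member reads, and 52 in F2, a library just under the threshold. The other NEB cell left out, F1, had 2 member reads.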

How the results depend on the processing

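Of 164 alternative values for 27 results, 149 stayed within 1 SD between cells or, for counts of genes, within 1.5 times the main count. Of the 164, 66 left out a single cell. None of these 66 moved, but leaving out 1 of 11 cells cannot shift a mean by 1 SD, so they say little. For the order of clusters, only the highest or lowest value was compared, whichever cluster held it. With at least 5 reads for detection, members per cell were 87.7 in G&T and 112 in Takara, the highest and lowest G&T clusters fell to 45.2% and 19.3%, and the lowest Takara cluster to 38.9%. The highest Takara cluster was then ZNF302 to ZNF792 and the lowest NEB cluster ZNF628 to ZNF446. With gaps of at most 0.5 Mb, ZNF628 to ZNF835 was lowest in every protocol. Gaps of up to 2 Mb made ZNF546 to ZNF296 lowest in G&T and Takara and ZNF302 to ZNF573 highest in NEB. The ends of the order thus depended on these settings. With all deposited cells, the Takara mean was 126 members and the Takara share of reads 3399 CPM, which was 2594 CPM without cell C2 and 3181 CPM without cell F1. Per 1000000 reads on nuclear protein-coding genes, members took 2517 in G&T and 2586 in Takara. With reads in at least 2 cells, 96 members counted as detected in NEB. Among members overlapped by less than 10%, the Takara arm difference was -6.78 percentage points. With 5 CPM added, the 2-fold counts were 11 higher in G&T and 22 in Takara for that pair, 49 in G&T over NEB and 56 in Takara over NEB, as a larger pseudocount shrinks ratios of low genes. Leaving out single cells gave 126.5 to 132.5 members in G&T, 143 to 147 in Takara and 37.6 to 42.3 in NEB. The arm difference then ran from -5.99 to -4.45 in G&T, from -1.53 to 0.46 in Takara and from -0.84 to 1.15 in NEB, so its sign in Takara and NEB hung on single cells. The comparison of G&T cells by reads outside genes, members under 50% GC and GC of the coding sequence were chosen after seeing the data and moved no value past these limits. No paired analysis was possible because wells share only a plate position and no result comes from a test.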
